A study of Homo sapiens with 9 samples.

Results

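Arsenic disulfide (As2S2) was compared directly with PMA (phorbol 12-myristate 13-acetate) in MEG-01 cells, the 3 libraries of the arsenic compound against the 3 of the phorbol ester, over all genes. The 6 libraries were chosen by their labels among the 9 of the series, and of the 63241 genes listed 14592 had enough counts to be tested. MEG-01 is a human line of megakaryoblasts, the precursors of the cells that shed platelets, established from a chronic myeloid leukaemia in blast crisis. The groups were MEG-01 cells given As2S2, MEG-01 cells given PMA and MEG-01 cells labelled as control. The 3 control libraries served to tell which agent had moved a gene, and they also entered the filter, the scaling and the estimate of spread behind each test. The labels give no dose, no treatment time and no vehicle, so the groups may differ in these as well as in the agent. They do not say that replicates were separate cultures. The p-values therefore reflect the spread among these libraries, and that spread may be technical only. All 9 libraries come from 1 leukaemia line, which carries the changes of that leukaemia in each group.

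PMA binds and activates protein kinase C in place of the lipid diacylglycerol, which sets off RAS, MEK and ERK signalling, and it has long been used to push leukaemia lines towards megakaryocytes or macrophages. Arsenic compounds bind the thiol groups of proteins. Cells typically answer them with metallothioneins, which chelate metals, and with the targets of NRF2, a transcription factor freed by oxidants and electrophiles. The series is about arsenic disulfide as an inducer of megakaryocytes acting by way of SRC, MEK and ERK, and the direct comparison asks how its transcriptome differs from that of a known inducer.

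Total counts ran from 18.2 to 20.37, in units of 1e6, over the 9 libraries. The first principal component of the log2 CPM (counts per 1e6 counts, with the library's size scaled by TMM) held 62.9% of the variance. It set the PMA libraries, at 74.3 to 75.9, apart from the As2S2 libraries, at -38.2 to -36.0, which lay among the controls at -41.4 to -33.9. The next component held 18.8% and parted As2S2, at -37.9 to -32.7, from control, at 34.1 to 36.0, with PMA between at 0.0911 to 0.700. As2S2 replicate 1 and control replicate 2 differed more from the other libraries of their groups than the PMA libraries did among themselves. Transcripts of the mitochondrial genome took 7.19% to 8.11% of the counts with As2S2 and 9.99% to 10.2% with PMA. Transcript length also moved with the comparison. Over 5 equal bins of genes from shortest to longest, the median log2 difference As2S2 minus PMA was -0.36, -0.10, -0.01, 0.14 and 0.31. PMA minus control ran from 0.36 in the shortest bin to -0.33 in the longest, and As2S2 minus control from 0.01 to -0.01. With the trend of each library with length removed, 84.2% of the calls were also made and 27 genes were called in the opposite direction. Values for several groups with the trend removed are given beside them.

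At an adjusted p under 0.05 (edgeR quasi-likelihood test, adjusted by Benjamini-Hochberg over all genes tested), 4503 genes, or 30.9%, were higher with As2S2 and 4463, or 30.6%, were higher with PMA. A gene past this threshold is said to be called. The 3 and 3 libraries did not overlap for 9800 genes, or 67.2% of those tested. With a log2 difference of at least 1 as well, 1392 genes (9.54%) were higher with As2S2 and 1624 (11.1%) with PMA, and with at least 2 the counts were 291 (1.99%) and 495 (3.39%). For 3222 genes, or 22.1%, the 95% interval of the difference lay within 0.5 of 0 on the log2 scale. The median difference over all genes tested was -0.0021. Most shares below are to be read against a background in which 61.4% of all genes were called in either direction.

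**Figure D1:**
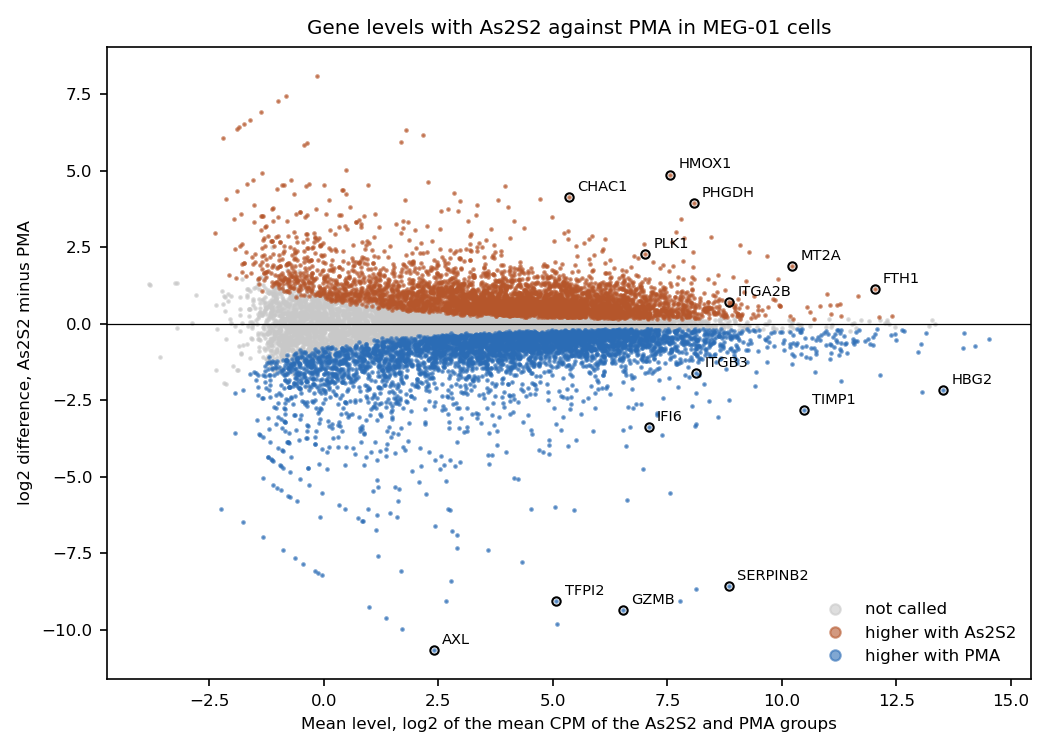
Each point is 1 of the 14592 genes tested. The horizontal axis is the log2 of the mean CPM of the As2S2 and PMA groups and the vertical axis the log2 difference As2S2 minus PMA. The 4503 genes called higher with As2S2 and the 4463 called higher with PMA are coloured. AXL, SERPINB2, GZMB and TFPI2 lie at the foot and HMOX1 lies highest among the labelled genes. The point of AXL rests on 0 counts with As2S2.

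Control told which agent had moved. With As2S2 20.3% of the genes tested rose from control and 19.6% fell, and with PMA 30.8% rose and 31.1% fell. Of the 4503 genes higher with As2S2, 2115 fell with PMA and were not called with As2S2, 708 rose with As2S2 only, 568 rose with As2S2 and fell with PMA, 581 fell with both and 183 rose with both. The remaining 348 were called against control with neither agent. Of the 4463 genes higher with PMA, 2108 rose with PMA only, 697 fell with As2S2 only, 499 fell with As2S2 and rose with PMA, 654 rose with both, 128 fell with both and 377 were called with neither. These classes share the control libraries, so their sizes are a description. The median difference was 1.07 for genes that rose with As2S2 and fell with PMA and 0.62 for those that rose with As2S2 only. Protein-coding genes were called in similar shares, 33.3% higher with As2S2 and 30.9% higher with PMA of 12433. Antisense transcripts were higher with As2S2 in 14.1% and with PMA in 30.7% of 576, and lincRNAs in 17.8% and 32.8% of 482. Whether the counting used strand is not stated in the sources, so reads of an antisense transcript and its partner may not have been told apart.

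**Figure D2:**
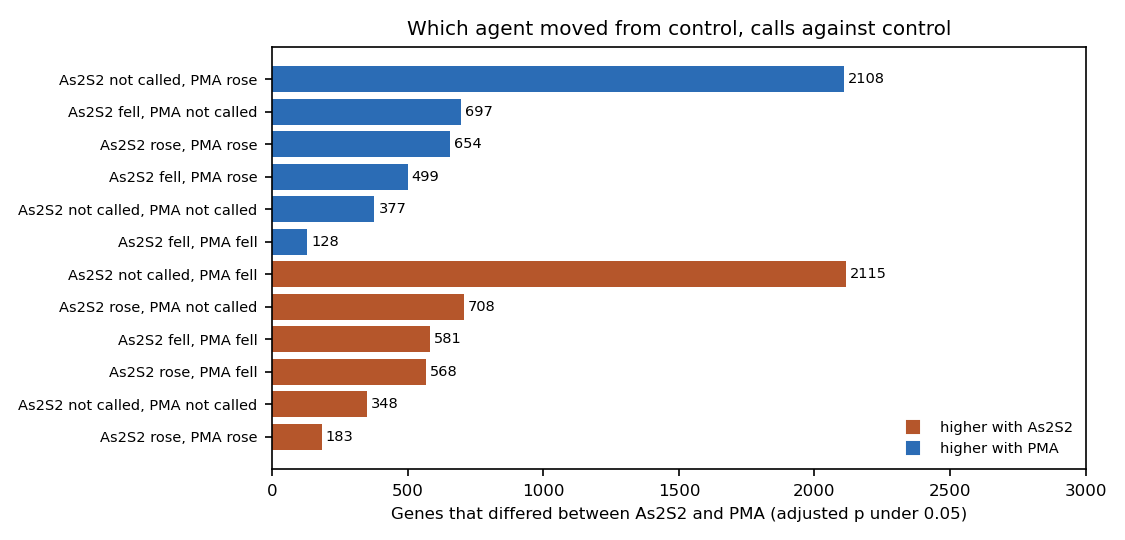
Bars give the number of genes that differed between As2S2 and PMA, split by whether each agent's level rose, fell or was not called against control. The longest bars in both colours are those with PMA called and As2S2 not called, 2115 and 2108 genes.

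The genes highest with As2S2 against PMA were led by a haem enzyme and by genes of amino acid stress. By the rule used for naming (mean of at least 5 CPM over the 6 libraries, past the threshold and without overlap), the 15 highest were HMOX1, ADM2, TREML2, CHAC1, CHD5, ATP2B3, CHRM3-AS2, PHGDH, OSM, RXFP1, TARP, SLC6A9, TRGC2, MAP1B and STC2. HMOX1 (ENSG00000100292), haem oxygenase 1, which breaks haem down to biliverdin, iron and carbon monoxide, stood at 324, 386 and 380 CPM with As2S2 and at 11.7, 12.8 and 12.5 with PMA. All 3 As2S2 libraries lay far above all 3 PMA libraries, which were close to the control mean of 11.2. The log2 difference was 4.88 ± 0.10 (SE, adjusted p = 1.88e-15, edgeR), or 29.5-fold. CHAC1 (ENSG00000128965), which degrades glutathione, stood at 66.5, 84.1 and 82.0 CPM with As2S2 and at 4.81, 3.41 and 4.90 with PMA, a difference of 4.15 ± 0.17. PHGDH (ENSG00000092621), which opens serine synthesis, stood at 458, 532 and 524 against 34.8, 31.7 and 31.0 CPM (3.96 ± 0.10). In both genes the As2S2 libraries were near control, whose means were 87.6 and 523 CPM, and the PMA libraries were the low ones.

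Several of the highest genes moved with both agents in opposite directions. TREML2, a receptor of the TREM family, stood at 12.9, 13.4 and 14.3 CPM with As2S2 and at 0.493, 0.635 and 0.915 with PMA, around a control mean of 4.14. ATP2B3, a calcium pump of the plasma membrane, stood at 23.9, 25.9 and 29.6 against 1.11, 1.502 and 2.10 CPM, with control at 12.4. The chromatin remodeller CHD5 stood at 41.3, 52.3 and 54.9 against 3.39, 2.77 and 2.64 CPM, with control at 31.3. In all 3 genes As2S2 lay above control and PMA below it, each past the test. The cytokine oncostatin M, OSM, was different in kind, at 17.0, 20.7 and 19.3 CPM with As2S2, 17.1 in control and 1.85, 0.924 and 1.13 with PMA. TARP and TRGC2 overlap at the T cell receptor gamma locus and held whole counts (deposited values with no fraction at all) in 0 of the 9 libraries, so their values are uncertain.

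The 15 genes lowest with As2S2 against PMA were AXL, LY6G6C, GZMB, RAMP1, STC1, TFPI2, A2M, SERPINB2, LRRC4B, CCL4, CCL3, RGS1, TMEM158, PLAT and CORO2B. SERPINB2 (ENSG00000197632), plasminogen activator inhibitor 2, stood at 2.87, 1.56 and 2.82 CPM with As2S2 and at 922, 961 and 864 with PMA, a difference of -8.57 ± 0.14 (adjusted p = 5.60e-17, edgeR), or 379-fold. GZMB (ENSG00000100453), the protease granzyme B of cytotoxic granules, stood at 0.261, 0.252 and 0.314 against 185, 188 and 178 CPM (-9.35 ± 0.15). Both genes were near control with As2S2, at control means of 2.01 and 0.273 CPM.

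For another group both agents moved, again in opposite directions. STC1 (ENSG00000159167), the secreted glycoprotein stanniocalcin 1, stood at 0.783, 0.604 and 1.05 CPM with As2S2 and at 430, 454 and 420 with PMA (-9.06 ± 0.12), around 2.72 in control. A2M, a broad inhibitor of proteases, stood at 1.15, 1.51 and 1.46 against 566, 567 and 538 CPM (-8.65 ± 0.12), around 4.32 in control. TFPI2, an inhibitor of serine proteases, stood at 0.157, 0.101 and 0.105 against 64.5, 74.1 and 62.9 CPM, with 7 counts in all with As2S2 and 3497 with PMA. In these 3 genes the level with As2S2 was below every PMA library and fell below control as well, past the test. AXL, a receptor tyrosine kinase, had 0 counts with As2S2 and 548 with PMA, so it was at least 204-fold lower with As2S2, taking 3 counts over the group as the floor. RAMP1, which pairs with the calcitonin receptor-like receptor, had 1 count against 661, a ratio of 738 (exact 95% interval 132 to 29181, counting error only). LRRC4B had 2 counts against 717, a ratio of 400.1 (110.4 to 3310).

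**Figure D3:**
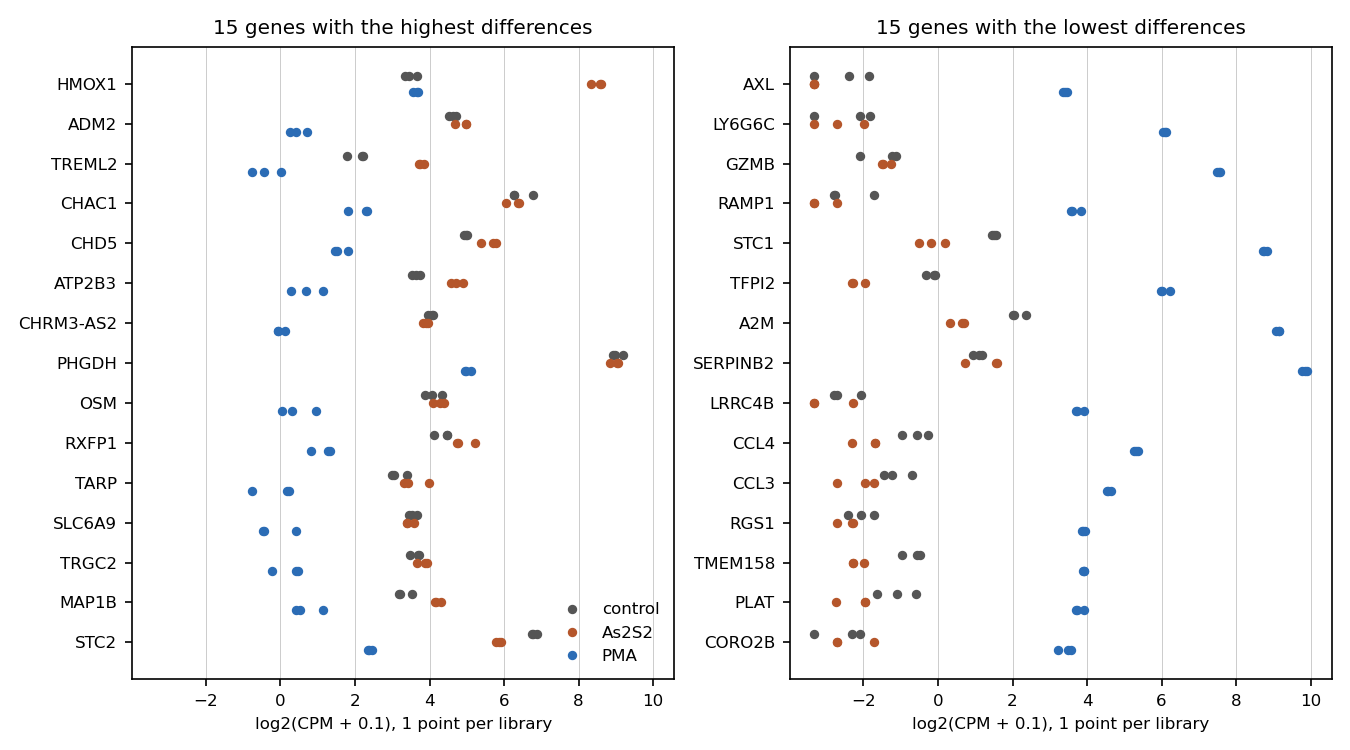
Points give log2(CPM + 0.1) of single libraries for the 15 genes with the highest differences (left) and the 15 with the lowest (right), 3 libraries each for control, As2S2 and PMA. No gene shown has overlapping As2S2 and PMA libraries, because the naming rule required this. For HMOX1 the PMA points lie near control and the As2S2 points away from it, while for PHGDH, OSM and GZMB As2S2 lies near control.

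Metallothioneins separated the agents, though both raised them. All 7 tested genes of the list, which also holds the zinc exporter SLC30A1, were higher with As2S2, with a median difference of 2.67. Against control the 7 rose with As2S2 and 5 rose with PMA. MT2A (ENSG00000125148), which binds zinc, copper and heavy metals, stood at 1696, 1961 and 2001 CPM with As2S2 and at 504, 513 and 515 with PMA, against 60.2 in control. The As2S2 libraries were the highest and the PMA libraries were also above control, so the difference between agents (1.88 ± 0.09, adjusted p = 3.01e-11, edgeR) was smaller than either change from control. MT1E stood at 564, 642 and 635 against 91.5, 86.0 and 77.4 CPM (2.85 ± 0.08), with control at 24.3. SLC30A1, which moves zinc out of the cell, stood at 86.2, 70.7 and 74.1 against 12.9, 12.5 and 14.3 CPM, and the PMA libraries were at the control mean of 13.7. MT1G, MT1F and MT1X differed by 2.67, 2.77 and 2.35. Metallothioneins resemble one another, so reads may have been shared out between them, though MT2A, MT1E and MT1F held whole counts in 9 of 9 libraries and MT1G and MT1X in 7.

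The promoters of these genes are known for metal response elements, the sites of the zinc-sensing factor MTF1, and are shown because the list moved as a whole. Of the 7 genes 4 had an entry in the RefSeq promoter table (GRCh38.p14), and the element's core, searched as TGCACNC or TGCGCNC on both strands in the 250 bases before the start, was in 4 of these 4, against 24.7% of 27305 promoters. The 2 forms differ at 1 base and do not overlap another motif searched. MT2A held 7 separate matches in chr16:56608334-56608583 and MT1X held 4 in chr16:56682220-56682469, both on the plus strand. Capitals mark the matches.
MT2A: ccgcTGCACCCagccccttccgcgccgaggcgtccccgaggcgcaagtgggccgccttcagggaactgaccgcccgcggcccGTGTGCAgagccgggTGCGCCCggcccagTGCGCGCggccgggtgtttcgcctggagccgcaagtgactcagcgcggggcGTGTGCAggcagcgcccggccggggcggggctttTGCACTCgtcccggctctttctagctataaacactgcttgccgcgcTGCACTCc
MT1X: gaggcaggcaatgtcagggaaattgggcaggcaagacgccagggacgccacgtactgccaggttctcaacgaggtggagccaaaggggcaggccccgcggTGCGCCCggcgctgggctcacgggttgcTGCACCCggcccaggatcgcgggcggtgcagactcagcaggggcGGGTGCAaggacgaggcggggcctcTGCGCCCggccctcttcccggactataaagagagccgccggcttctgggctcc

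NRF2 targets, HMOX1 among them, were more often higher with As2S2. Of 24 tested, 15 were higher with As2S2, 3 were higher with PMA and 6 were not called, with a median difference of 0.49. The quinone reductase NQO1 stood at 13.1, 12.99 and 10.9 CPM with As2S2 and at 2.04, 2.43 and 2.64 with PMA (2.37 ± 0.16), and PMA did not differ from control (1.81 CPM) past the test. GCLM, the modifier subunit of glutamate-cysteine ligase, which starts glutathione synthesis, stood at 147, 128 and 134 against 46.3, 47.7 and 43.3 CPM (1.57 ± 0.08), with control at 32.1. SLC7A11, the cystine importer, stood at 30.9, 31.2 and 25.7 against 3.15, 4.62 and 4.68 CPM (2.81 ± 0.17), and here control, at 23.5, was near As2S2. Against control NQO1 rose with As2S2, GCLM rose with both agents and SLC7A11 fell with PMA. TXN, AKR1C1 and PRDX1 were the 3 higher with PMA, at -0.60, -0.77 and -0.25. The heavy ferritin chain FTH1 stood at 5404, 5872 and 5924 against 2541, 2569 and 2665 CPM (1.15 ± 0.08). The light chain FTL, chosen after its values were seen, stood at 9076, 11081 and 10689 against 10334, 10223 and 10508 CPM, overlapping, with an interval of the difference from -0.22 to 0.20. FTL rose with both agents from 3693 CPM. With the length trend removed FTL was called, at 0.33. The antioxidant response element, searched as TGACNNNGC on both strands, was in 4 of the 17 promoters found for the 24 genes. That is 23.5%, against 11% of all promoters, and NQO1 and FTL held no match.

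Heat shock genes showed no common direction. Of 21 tested, 6 were higher with As2S2 and 10 with PMA, with a median of -0.03 (0.00 to -0.09 over the other settings), although 16 rose with As2S2 and 13 with PMA. HSPA1A, the inducible HSP70, stood at 168, 183 and 195 CPM with As2S2 and at 397, 399 and 411 with PMA (-1.14 ± 0.08), from 86.1 in control. Both agents lay above control and PMA the higher, but HSPA1A shares reads with its copy HSPA1B and held whole counts in 0 of 9 libraries. The co-chaperone FKBP4 went the other way, at 396, 426 and 429 against 257, 258 and 247 CPM (0.71 ± 0.07). HSP90AA1, the inducible HSP90 (chosen after its values were seen), stood at 248, 226 and 192 against 134, 99.6 and 107 CPM. It rose with As2S2 and fell with PMA from 164 CPM.

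Genes of the ATF4 stress response, which cells switch on when amino acids run short, were higher with As2S2 almost as a list. Of 28 tested, 25 were higher with As2S2, 1 was higher with PMA and 2 were not called, with a median difference of 2.07. The member higher with PMA was not called without As2S2 replicate 2 or 3 or any 1 PMA library. Against control 25 members fell with PMA (median -2.36), and 13 fell and 4 rose with As2S2 (median -0.18). PSAT1, the next enzyme of serine synthesis after PHGDH, stood at 420, 395 and 408 CPM with As2S2 and at 39.5, 37.0 and 36.7 with PMA, with control at 491. SLC7A5, a transporter of large neutral amino acids, stood at 314, 398 and 389 against 48.5, 42.6 and 47.2 CPM, with control at 413. DDIT4, an inhibitor of mTORC1, stood at 376, 423 and 422 against 61.3, 52.6 and 60.3 CPM, with control at 572. In each the As2S2 libraries were at or a little below control and the PMA libraries several times lower. Differences were 3.43, 2.99 and 2.81, and PCK2 and STC2 stood at 2.97 and 3.48. Chosen after their values were seen, ATF4 itself differed by 1.39 ± 0.07, TRIB3 by 2.45 ± 0.12 and the asparagine synthetase ASNS by 1.86 ± 0.10. ASNS stood at 194, 146 and 153 CPM with As2S2, 44.8, 48.3 and 43.2 with PMA and 366 in control, so it fell with both. It held whole counts in 0 of 9 libraries.

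The amino acid response element, where ATF4 binds with a C/EBP partner, was searched as TGATGNAA on both strands. It was in 3 of the 23 promoters found for the 28 genes, or 13%, against 3.19% of all promoters. CHAC1 and ASNS are printed because they hold it and differed. The CHAC1 match is on the other strand of the run shown. CHAC1 lies at chr15:40953221-40953470 on the plus strand and ASNS at chr7:97872409-97872658 on the minus strand.
CHAC1: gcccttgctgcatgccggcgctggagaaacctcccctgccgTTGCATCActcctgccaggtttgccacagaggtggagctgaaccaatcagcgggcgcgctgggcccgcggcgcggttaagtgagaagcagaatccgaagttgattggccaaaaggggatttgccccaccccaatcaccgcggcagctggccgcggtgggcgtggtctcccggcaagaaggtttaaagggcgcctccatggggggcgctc
ASNS: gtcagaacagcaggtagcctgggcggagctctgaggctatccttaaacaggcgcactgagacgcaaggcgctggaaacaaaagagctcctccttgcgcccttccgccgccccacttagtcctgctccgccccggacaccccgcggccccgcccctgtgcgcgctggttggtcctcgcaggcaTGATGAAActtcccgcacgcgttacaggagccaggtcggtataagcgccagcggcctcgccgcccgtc

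Mitosis genes were higher with As2S2 almost throughout. Of 34 tested, 32 were higher with As2S2, 0 with PMA and 2 were not called, with a median difference of 1.21. Without As2S2 replicate 1, 2 members were higher with PMA. Against control 23 rose with As2S2 and 0 fell, while 25 fell with PMA and 3 rose, and 15 were called in opposite directions. PLK1 (ENSG00000166851), a kinase of mitotic entry and spindle assembly, stood at 192, 223 and 226 CPM with As2S2 and at 45.2, 43.4 and 42.2 with PMA, around 130 in control. Its difference was 2.29 ± 0.09 (adjusted p = 1.71e-12, edgeR), or 4.90-fold. CDC20, which activates the anaphase-promoting complex, stood at 181, 207 and 214 against 75.3, 72.0 and 68.5 CPM (1.48 ± 0.09), around 106. INCENP, the scaffold of the chromosomal passenger complex, stood at 55.0, 54.8 and 57.6 against 21.4, 19.8 and 23.8 CPM (1.36 ± 0.09), around 42.2. In these 3 genes the groups did not overlap and control lay between them. The kinetochore motor CENPE, chosen after its values were seen, fell with PMA and was not called with As2S2. In bulk RNA, fewer cells in a phase of the cycle and less RNA per cell cannot be told apart, here and for each cell type marker below.

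DNA replication genes followed with a smaller median. Of 34 tested, 25 were higher with As2S2, 3 with PMA and 6 were not called, with a median of 0.67. MCM5, of the replicative helicase, stood at 152, 174 and 181 CPM with As2S2 and at 57.9, 57.6 and 51.9 with PMA (1.60 ± 0.09), around 124 in control. ORC1, of the origin recognition complex, stood at 61.6, 58.8 and 58.5 against 24.9, 24.1 and 24.1 CPM (1.29 ± 0.08), around 41.3. RRM2, which makes deoxynucleotides, differed by 1.28 ± 0.07. Exceptions, named after their values were seen, were PCNA, the sliding clamp, at 107, 89.3 and 94.2 against 142, 157 and 140 CPM (-0.59 ± 0.08), and MCM7, at 66.8, 69.5 and 75.5 against 87.4, 85.9 and 88.1 CPM (-0.30 ± 0.07). MCM7 fell with both agents from 173 CPM.

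Inhibitors of the cell cycle and D cyclins were split. Of 15 tested, 5 were higher with As2S2 and 7 with PMA (median 0.06, and -0.14 with the length trend removed). Without As2S2 replicate 1 the count higher with As2S2 was 3 and the median 0.02, without As2S2 replicate 2 the median was -0.0018, and without PMA replicate 1 it was 0.03. CDKN1A, the inhibitor p21, stood at 63.0, 75.1 and 73.5 CPM with As2S2 and at 220, 210 and 221 with PMA (-1.62 ± 0.10), and both agents raised it from 30.3. CDKN2B, the inhibitor p15, stood at 8.71, 11.1 and 11.7 against 73.5, 73.3 and 71.7 CPM (-2.79 ± 0.11), below and above a control mean of 27.0. Cyclins D1 and D3 parted: CCND1 was lower with As2S2, at 36.7, 38.0 and 38.1 against 82.5, 81.7 and 82.4 CPM. CCND3 was higher, at 355, 429 and 414 against 152, 139 and 145 CPM, with PMA near the control mean of 149.

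Interferon-stimulated genes had the lowest median of the 35 lists. Of 31 tested, 28 were higher with PMA, 0 with As2S2 and 3 were not called, with a median difference of -1.67. Without As2S2 replicate 3, 1 member was higher with As2S2. Against control 23 fell with As2S2 and 27 rose with PMA, and 20 were called in opposite directions. IFI6 (ENSG00000126709), an inhibitor of cell death induced by interferon, stood at 20.6, 25.8 and 25.1 CPM with As2S2 and at 250, 239 and 256 with PMA, around 59.5 in control. Its difference was -3.38 ± 0.12 (adjusted p = 1.16e-12, edgeR), or 10.4-fold. ISG15, a ubiquitin-like modifier, stood at 15.8, 19.0 and 16.8 against 91.6, 89.3 and 94.7 CPM (-2.42 ± 0.12), around 43.2. OAS1, which senses double-stranded RNA, stood at 6.21, 6.24 and 5.07 against 29.7, 29.9 and 28.4 CPM (-2.33 ± 0.11), around 13.8. Control lay between the agents in all 3, and no As2S2 library reached a PMA library. RSAD2, an antiviral enzyme, and IFI27 differed by -2.94 and -2.13, and MX2, chosen after its values were seen, by -4.02 ± 0.26.

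The interferon-stimulated response element, where IRF factors bind, was searched as TTTC, any 2 bases and TTTC on both strands. It was in 15 of the 24 promoters found for the 31 genes, or 62.5%, against 3.07% of all promoters. The class is defined by its answer to interferon, which acts through this element, so the share describes the list. ISG15 lies at chr1:1013247-1013496 on the plus strand, with overlapping matches printed as 1 run, and IFI6 at chr1:27672193-27672442 on the minus strand with 3 separate matches.
ISG15: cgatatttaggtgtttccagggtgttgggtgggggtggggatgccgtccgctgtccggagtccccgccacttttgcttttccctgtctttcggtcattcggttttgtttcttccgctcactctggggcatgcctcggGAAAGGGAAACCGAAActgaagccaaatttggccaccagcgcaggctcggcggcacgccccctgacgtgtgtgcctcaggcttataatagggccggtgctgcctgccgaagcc
IFI6: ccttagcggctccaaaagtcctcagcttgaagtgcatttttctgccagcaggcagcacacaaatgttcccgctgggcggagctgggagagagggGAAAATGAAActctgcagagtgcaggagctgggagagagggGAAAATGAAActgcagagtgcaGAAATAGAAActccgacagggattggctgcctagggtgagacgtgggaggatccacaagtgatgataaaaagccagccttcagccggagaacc

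**Figure D4:**
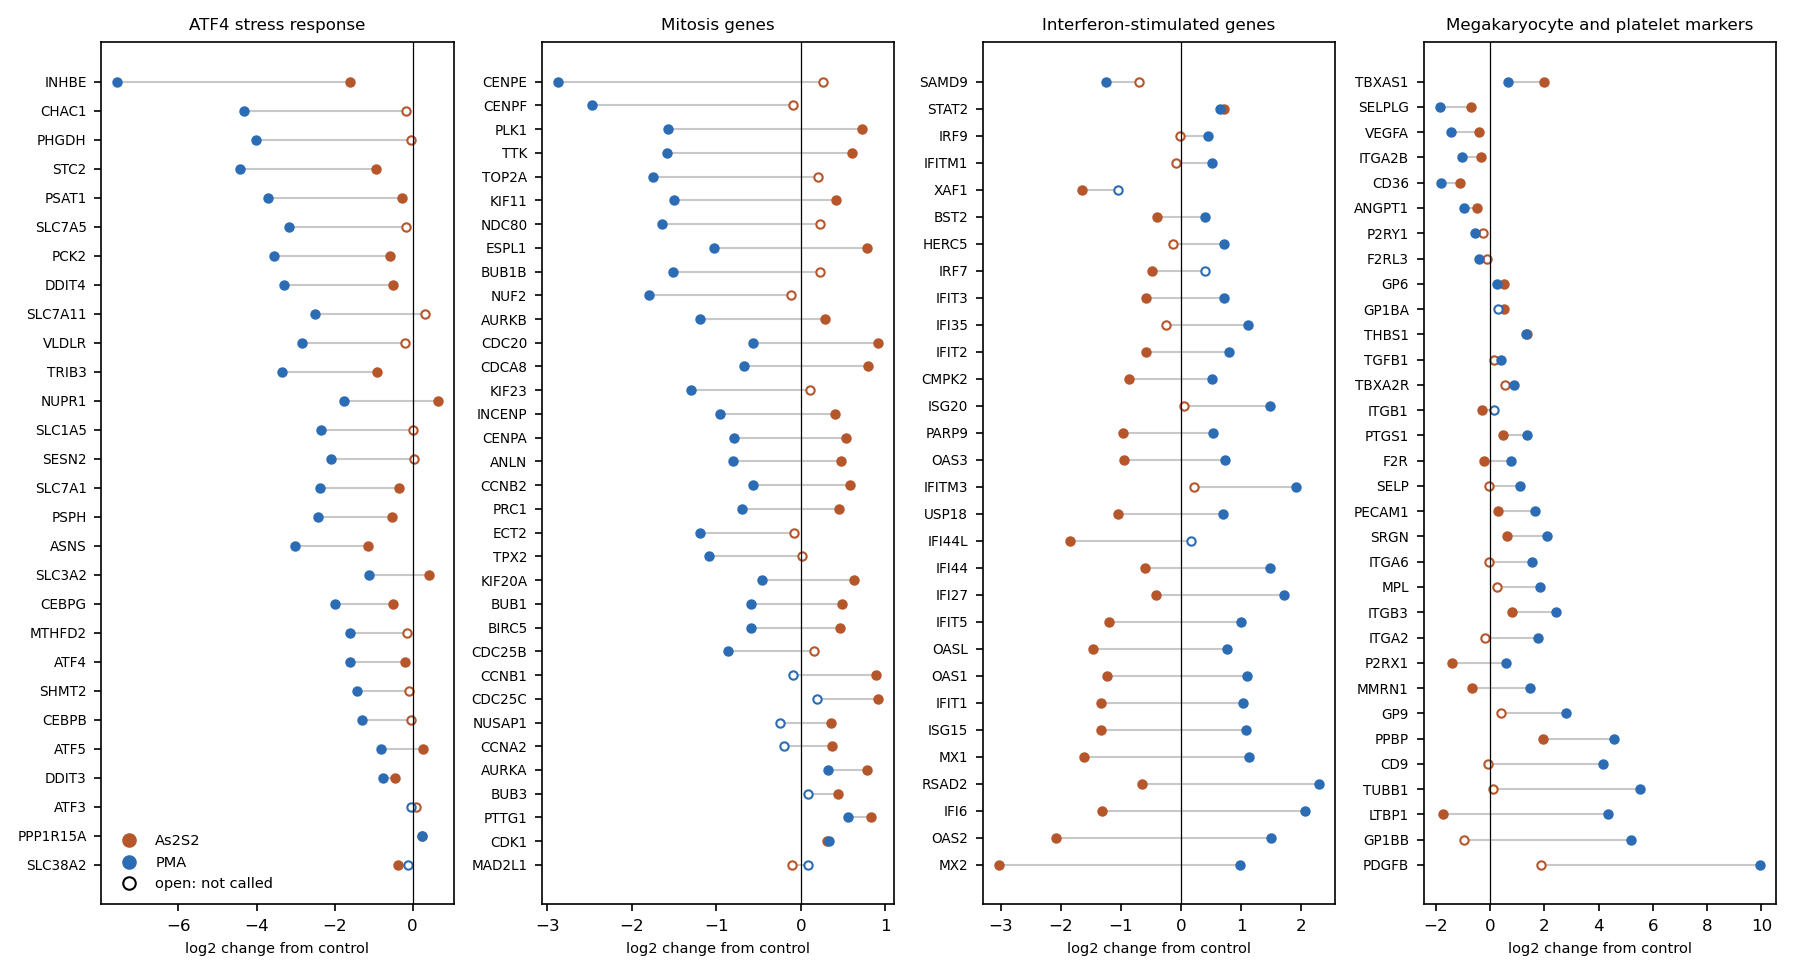
Each row is a gene of 1 of 4 lists. The orange and blue points are its log2 changes from control with As2S2 and PMA, filled where called (adjusted p under 0.05), and rows are ordered by the difference between the agents. Among ATF4 genes most PMA points lie far to the left, and the 13 members that fell with As2S2 have their As2S2 points left of 0 as well. Among interferon-stimulated genes the 2 colours lie mostly on opposite sides of 0, and PDGFB, at the foot of the right panel, rests on 0 control counts.

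Megakaryocyte and platelet markers were higher with PMA in 20 of 32, higher with As2S2 in 8 and not called in 4, with a median difference of -1.09. Against control 23 rose and 7 fell with PMA, and 9 rose and 10 fell with As2S2. The fibrinogen receptor split between its chains. ITGB3 (ENSG00000259207), the beta chain, stood at 129, 139 and 145 CPM with As2S2 and at 426, 417 and 414 with PMA, from 78.1 in control. Both agents raised it and PMA by more, a difference of -1.61 ± 0.07 (adjusted p = 6.84e-12, edgeR), or 3.05-fold. ITGA2B (ENSG00000005961), the alpha chain, stood at 501, 604 and 605 against 358, 330 and 352 CPM (0.72 ± 0.08), from 719 in control. Both agents lowered it and PMA by more, so the chain was higher with As2S2.

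Other platelet genes separated the agents more. CD9, a tetraspanin of the platelet surface, stood at 3.18, 3.42 and 2.46 CPM with As2S2 and at 61.3, 59.6 and 52.0 with PMA (-4.25 ± 0.14), with control at 3.22. LTBP1, which binds latent TGF-beta, stood at 1.20, 1.46 and 1.20 against 85.7, 92.1 and 83.0 CPM (-6.07 ± 0.14), with control at 4.34. TUBB1, the beta tubulin of platelets, stood at 0.104, 0.101 and 0.209 against 6.48, 5.43 and 6.40 CPM, or 8 counts against 318. With As2S2 against control CD9 and TUBB1 were not called and LTBP1 fell. GP9, of the von Willebrand receptor, stood at 0.522, 0.806 and 0.471 against 3.64, 3.29 and 2.74 CPM (-2.41 ± 0.29). GP1BB, its partner (chosen after its values were seen), had 4 counts with As2S2 and 282 with PMA, and PDGFB (also so chosen) had 1 against 333, a ratio of 372 (exact 95% interval 66.2 to 14722, counting error only). GP1BA, the chain that binds von Willebrand factor, stood at 13.3, 18.4 and 18.04 against 15.3, 13.3 and 14.1 CPM, overlapping and not called (0.22, interval -0.05 to 0.49). Without As2S2 replicate 1 it was called, at 0.37.

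Markers on the As2S2 side were few. TBXAS1, thromboxane synthase, differed by 1.31, VEGFA by 1.05 and CD36, the thrombospondin receptor, by 0.67 ± 0.17. THBS1, thrombospondin 1, stood at 22.4, 28.9 and 28.4 with As2S2 and at 26.2, 26.6 and 25.6 CPM with PMA. Both agents raised it, from 10.5, and the interval of their difference ran from -0.21 to 0.26. With the length trend removed THBS1 was called lower with As2S2, at -0.36. The defining markers GP5, PF4 and TREML1 had 0 counts with As2S2, and GP5 and TREML1 had 0 and PF4 1.64 estimated counts with PMA, so a difference in these 3 was not detectable at this depth. The summed CPM of the list was 2387 to 2521 with As2S2, 2339 to 2519 in control and 3617 to 3711 with PMA.

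Transcription factors of the lineage were mixed. Of 28 tested, 13 were higher with As2S2 and 8 with PMA, with a median of 0.13. With the length trend removed the median became 0.01, with 9 higher with As2S2 and 9 with PMA. The median was 0.22 without As2S2 replicate 1 and 0.09 without As2S2 replicate 3. The count higher with PMA was 5 when genes of low counts were kept, 5 without PMA replicate 2 and 4 without PMA replicate 3. GATA1, the master factor of both red cells and megakaryocytes, stood at 88.8, 108 and 101 CPM with As2S2 and at 99.6, 96.3 and 108 with PMA. The libraries overlapped, and the interval of the difference, -0.25 to 0.20, took in 0. NFE2, needed to release platelets, stood at 93.6, 104 and 103 against 98.4, 98.7 and 103 CPM (interval -0.17 to 0.18) and fell with both agents from 142. MYB fell with both as well, and was not called between them (-0.13, interval -0.30 to 0.05), though it was with the length trend removed (-0.25) and without both libraries that stood apart (-0.16). LMO2, the bridging factor of the GATA1 complex, was higher with PMA, at 27.9, 26.4 and 27.0 against 116, 114 and 114 CPM (-2.08 ± 0.08), with control between at 57.1. KLF1, the red cell factor, was higher with As2S2, at 48.4, 56.8 and 54.8 against 25.4, 22.3 and 25.1 CPM (1.14 ± 0.14). RUNX1 differed by 0.35 ± 0.07, a call lost with the length trend removed (0.14). FLI1 differed by -0.21 ± 0.08 (adjusted p = 0.0304, edgeR). That call was lost when genes of low counts were kept (-0.18), and without control replicate 3 (-0.20), As2S2 replicate 2 (-0.16) or 3 (-0.19), or PMA replicate 2 (-0.15) or 3 (-0.21).

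In the erythroid list HBG2 (ENSG00000196565), a fetal gamma globin, stood at 4089, 4458 and 4374 CPM with As2S2 and at 19854, 18946 and 18610 with PMA, from 3030 in control. Each PMA library lay far above each As2S2 and control library, and the difference was -2.15 ± 0.07 (adjusted p = 5.11e-13, edgeR), or 4.44-fold. HBE1, the embryonic epsilon globin, stood at 46.7, 52.3 and 51.1 against 535, 507 and 461 CPM (-3.32 ± 0.08), and HBD, delta globin, at 3.08, 3.37 and 2.61 against 21.2, 17.97 and 22.4 CPM (-2.76 ± 0.15). HBG1 and HBG2 are near-identical and held whole counts in 0 of 9 libraries, so their division is uncertain. SLC4A1, the anion exchanger band 3 of the red cell membrane (chosen after its values were seen), was higher with As2S2 and stood at 13.8, 15.7 and 13.8 against 2.34, 3.24 and 2.31 CPM (2.45 ± 0.15), with control at 14.7. As a whole the list held 11 members higher with As2S2 and 10 with PMA of 24, and its median of -0.11 became 0.22 with the length trend removed and -0.18, -0.05 and -0.03 without As2S2 replicates 1, 2 and 3.

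Components of SRC, RAS, MEK and ERK signalling were higher with As2S2 in 18 of 31, higher with PMA in 2 and not called in 11, with a median of 0.40. With the length trend removed 17 were higher with As2S2 and 7 with PMA. Upper-quartile scaling gave 4 higher with PMA, and keeping genes of low counts or leaving out As2S2 replicate 3 or any 1 PMA library gave 1. Against control 17 members fell and 2 rose with PMA, and 5 rose and 3 fell with As2S2. SRC (ENSG00000197122), the kinase named by the series, stood at 43.7, 56.5 and 54.3 CPM with As2S2 and at 22.0, 25.7 and 27.2 with PMA, around 30.8 in control. It rose with As2S2 and fell with PMA, a difference of 1.04 ± 0.11 (adjusted p = 5.52e-07, edgeR). Its relative YES1, chosen after its values were seen, stood at 70.2, 59.1 and 52.3 against 23.6, 21.7 and 20.99 CPM (1.46 ± 0.14), with control at 71.1. The adaptor GAB2 stood at 135, 145 and 144 against 42.3, 41.3 and 40.2 CPM (1.78 ± 0.08), with control at 146. For these 2 genes PMA was the agent that moved. The scaffold KSR1 and the exchange factors SOS1 and RASGRP2 differed by 1.46, 1.24 and 1.30, and the diacylglycerol-sensing RASGRP3 by -2.22 ± 0.15.

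For MEK1 and ERK1 the interval of the difference included 0. MAP2K1, which encodes MEK1, stood at 66.4, 70.5 and 71.1 CPM with As2S2 and at 67.1, 69.1 and 62.2 with PMA (interval -0.09 to 0.23). MAPK3, which encodes ERK1, stood at 33.0, 38.8 and 39.0 against 36.5, 38.4 and 35.6 CPM (interval -0.24 to 0.25). MAP2K2, which encodes MEK2, was higher with As2S2, at 71.9, 86.9 and 91.2 against 53.1, 52.9 and 55.3 CPM (0.63 ± 0.11). The SRC family kinase LYN overlapped (interval -0.18 to 0.14) and was called with the length trend removed (-0.34). These are RNA levels, and phosphorylation was not measured in the data used here.

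Feedback inhibitors that ERK signalling induces were more often higher with PMA. Of 17 tested 10 were higher with PMA, 1 with As2S2 and 6 were not called (median -0.48). SPRY1, a Sprouty inhibitor, stood at 10.5, 11.5 and 13.4 CPM with As2S2 and at 59.9, 60.1 and 60.2 with PMA (-2.35 ± 0.11), around 21.5 in control. SPRY2 stood at 8.504, 9.87 and 10.9 against 38.9, 40.4 and 38.6 CPM (-2.01 ± 0.11), around 13.03. DUSP6, the phosphatase of ERK, stood at 121, 121 and 124 against 205, 214 and 207 CPM (-0.77 ± 0.06), around 170. In these 3 As2S2 lay below control and PMA above it. SPRY4 rose with both, with PMA the higher (-0.70 ± 0.11), and SPRED2 was the member higher with As2S2 (1.04 ± 0.11).

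Early response factors were higher with PMA in 18 of 27 and with As2S2 in 6 (median -0.79, and -0.44 with the stricter filter). NR4A3 had 0 counts with As2S2 and 42 with PMA, at least 15.6-fold lower with As2S2, and setting it to this bound left the median at -0.79. FOS, of the AP-1 factor, stood at 4.28, 3.68 and 3.56 CPM with As2S2 and at 28.1, 28.6 and 32.0 with PMA (-2.94 ± 0.13), with control at 3.17. EGR1 stood at 21.5, 26.8 and 27.9 against 107, 107 and 111 CPM (-2.10 ± 0.11), around 67.7 in control. JUN stood at 46.6, 52.6 and 51.2 against 167, 167 and 172 CPM (-1.75 ± 0.07), and both agents raised it from 27.1. FOS was not called with As2S2 against control, EGR1 fell and JUN rose, and PMA was the higher in each. PHLDA1 differed by -3.97 and FOSB by -2.96, and FOSL1 by -0.43 ± 0.12. MYC went the other way, at 335, 359 and 368 against 268, 267 and 257 CPM (0.42 ± 0.07), after falling with both agents from 893. The AP-1 element TGAGTCA, on both strands, was in 1 of the 10 promoters found for the 15 lowest genes and in 4.16% of all promoters.

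Protein kinase C and D genes, the targets of PMA and their relatives, were higher with As2S2 in 10 of 16 and with PMA in 1, with a median of 0.50 that became 0.23 with the length trend removed. PRKCA was the member higher with PMA, at 8.56, 9.77 and 8.58 against 12.95, 12.5 and 13.1 CPM (-0.52 ± 0.11). PRKCB stood at 375, 329 and 339 against 248, 239 and 222 CPM (0.55 ± 0.08) and rose with both agents from 202. The kinase C substrate MARCKS stood at 30.7, 30.0 and 33.3 against 9.62, 9.94 and 9.90 CPM (1.67 ± 0.10), above and below 15.1 in control.

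Cytokines and chemokines were higher with PMA in 16 of 21 and with As2S2 in 2 (median -0.77). The latter count was 1 without As2S2 replicate 2 or PMA replicate 2 or 3. CCL2, which draws monocytes, stood at 4.43, 5.24 and 4.60 CPM with As2S2 and at 73.8, 78.6 and 75.7 with PMA (-4.00 ± 0.11), around 11.02 in control. CXCL8, interleukin 8, stood at 39.1, 27.9 and 27.7 against 194, 199 and 191 CPM (-2.62 ± 0.11), and both agents raised it from 18.5. IL1B stood at 229, 208 and 223 against 351, 377 and 355 CPM (-0.71 ± 0.07), also above 137 in control with both. CCL3 and CCL4 had 8 and 10 counts with As2S2 and 1249 and 2065 with PMA. CCL3L3, a near copy of CCL3, differed by -5.51 ± 0.11. Subunits and feedback genes of NF-kB were split, 7 higher with As2S2 and 3 with PMA of 16. The non-canonical subunits NFKB2 and RELB were higher with As2S2 (1.35 ± 0.09 and 0.65 ± 0.11), and the adaptor TRAF1 with PMA (-3.41 ± 0.18).

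Matrix, protease and inhibitor genes were higher with PMA in 14 of 22 and with As2S2 in 6 (median -0.88), and integrins and adhesion genes in 15 and 5 of 23 (median -0.64). TIMP1, which inhibits metalloproteinases, stood at 320, 365 and 380 CPM with As2S2 and at 2501, 2486 and 2470 with PMA (-2.81 ± 0.10), from 236 in control. MMP1, a collagenase, stood at 23.5, 15.2 and 15.6 against 179, 195 and 190 CPM (-3.38 ± 0.13), with control at 25.1. The tissue plasminogen activator PLAT was on the same side (-6.76 ± 0.29), as was its inhibitor SERPINB2, given above. The integrin chain ITGB5 stood at 3.76, 4.93 and 3.71 against 29.8, 30.7 and 31.2 CPM (-2.88 ± 0.13). ICAM1, a ligand of leukocyte integrins, and ITGAL, its receptor's alpha chain, were higher with As2S2, at 1.77 ± 0.11 and 1.80 ± 0.17. ICAM1 rose with As2S2 and fell with PMA, and ITGAL fell with both.

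Cytoskeleton genes of spreading and proplatelets were higher with As2S2 in 14 of 31 and with PMA in 5 (median 0.18). Without As2S2 replicate 1 the count higher with As2S2 was 19 and the median 0.28. Against control 22 rose with As2S2 and 18 with PMA. TUBA1A, an alpha tubulin, stood at 140, 156 and 156 CPM with As2S2 and at 61.3, 64.5 and 67.6 with PMA (1.23 ± 0.09), from 42.8. TUBB stood at 2457, 2771 and 2824 against 1374, 1386 and 1361 CPM (0.97 ± 0.08), above and below 1731. Tubulin copies share sequence, and both held whole counts in 0 of 9 libraries. The regulatory light chains of nonmuscle myosin went the other way, MYL12A by -1.05 ± 0.08 and MYL12B by -1.18 ± 0.07, and neither was called with As2S2 against control.

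**Figure D5:**
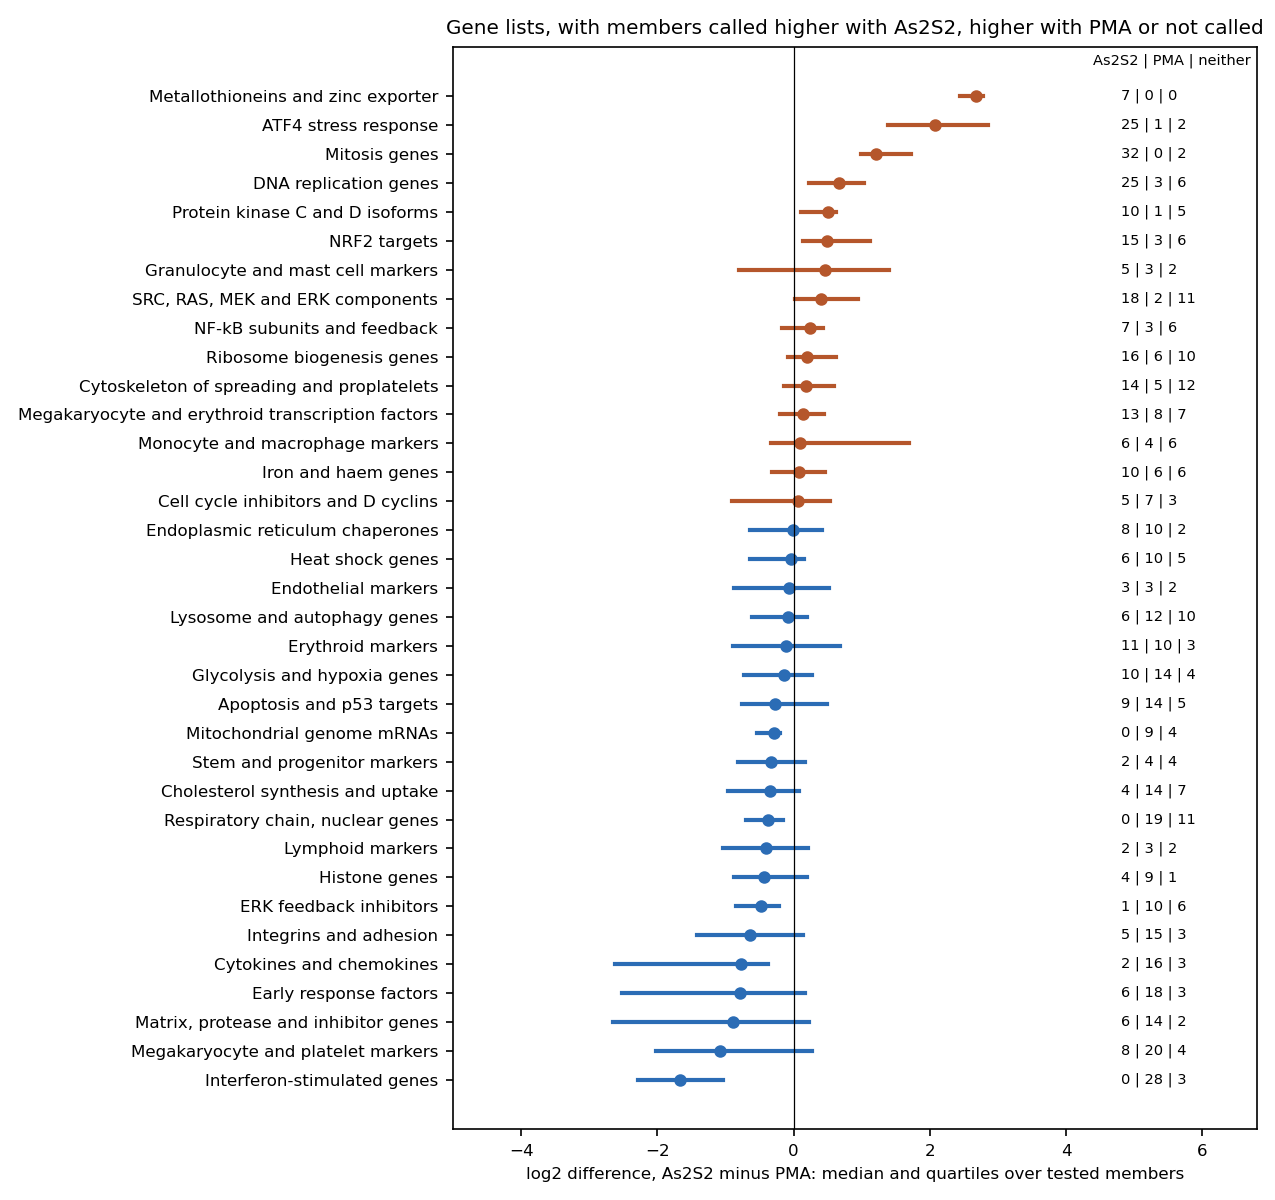
Points give each list's median log2 difference As2S2 minus PMA and bars the quartiles over its tested members. The numbers at the right count the members called higher with As2S2, called higher with PMA and not called. Metallothioneins, with a median of 2.67, stand at the top and interferon-stimulated genes, at -1.67, at the foot, and many lists have quartiles on both sides of 0.

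The cholesterol, respiratory chain and histone lists held more members higher with PMA. Of 25 cholesterol synthesis and uptake genes 14 were higher with PMA and 4 with As2S2 (median -0.35), and 15 rose with As2S2 and 20 with PMA. SQLE, squalene epoxidase, stood at 287, 253 and 268 CPM with As2S2 and at 1091, 1143 and 1074 with PMA (-2.04 ± 0.07), with control at 288. LSS, the next enzyme of the pathway, was higher with As2S2, at 42.2, 53.4 and 53.9 against 21.7, 19.99 and 23.4 CPM (1.20 ± 0.11). Nuclear genes of the respiratory chain were higher with PMA in 19 of 30 and with As2S2 in 0 (median -0.38), and messenger RNAs of the mitochondrial genome in 9 and 0 of 13 (median -0.28). For the nuclear genes, 2 were higher with As2S2 without As2S2 replicate 1 or control replicate 2 and 1 without control replicate 3. With the length trend removed the medians became -0.09 and -0.09, with 12 and 6 higher with PMA and 4 and 3 with As2S2. The call of MT-ND3 (-0.64 ± 0.06) was lost in that setting. Histone genes were higher with PMA in 9 of 14 and with As2S2 in 4 (median -0.43, -0.15 with the length trend removed and -0.24 with the stricter filter). Most ribosome biogenesis genes fell with each agent (21 with As2S2 and 26 with PMA of 32). Between the agents 16 were higher with As2S2, 6 with PMA and 10 were not called (median 0.20). The polymerase I subunit POLR1A differed by 1.20 ± 0.07 and fibrillarin, FBL, by 0.80 ± 0.07.

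Markers of other cell types did not point one way. Of 16 monocyte and macrophage markers 6 were higher with As2S2 and 4 with PMA. Their summed level was 817 to 832 CPM with As2S2, 731 to 808 in control and 1052 to 1069 with PMA. Against control, however, 10 members fell and 4 rose with PMA, and 6 rose and 5 fell with As2S2. The higher sum with PMA thus does not describe most members. CD68, a lysosomal protein of macrophages, was higher with PMA (-1.10 ± 0.08), and CD80, a co-stimulatory ligand, was higher with As2S2, at 10.4, 9.11 and 8.21 against 0.370, 0.289 and 0.430 CPM (4.64 ± 0.26). The defining markers CD163 and MARCO were at 0 counts in all 9 libraries. Granulocyte and mast cell markers summed to 492 to 516 CPM with As2S2 and 511 to 519 with PMA. Of 10 tested, 5 were higher with As2S2, 3 with PMA and 2 were not called. CTSG, cathepsin G, was higher with As2S2, at 3.29, 4.38 and 3.56 against 0.247, 0.116 and 0.108 CPM (4.55 ± 0.35), the latter from 8 counts. The mast cell genes TPSAB1 and FCER1A were higher with PMA, 3.03-fold and 3.0-fold. Lymphoid markers summed to 85.5 to 98.7 CPM with As2S2, 121 to 135 in control and 295 to 315 with PMA. Granzyme B, the member that differed most, made up 185, 188 and 178 CPM of the sums with PMA. The higher sum with PMA thus does not describe the list. Of 7 tested, 2 were higher with As2S2, 3 with PMA and 2 were not called. MS4A1 was at 0 counts in all 9 libraries. Endothelial markers summed to 582 to 655 against 571 to 590 CPM. Their part in the differences above was not tested.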

How the data were processed

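RNA selected by poly(A) was sequenced from 9 MEG-01 libraries, 3 per group, made with the NEBNext Ultra II kit per the labels' protocols. Per the submitters' processing notes, fastp 0.22.0 and DESeq2 were used. The genome builds named there are zebrafish builds, whereas the tables carry human Ensembl IDs. No aligner, counting tool, strand setting or annotation is given in the sources used here. Per the file headers, the authors deposited 2 tables with estimated counts (expected counts) and TPM per library. The tables were joined by gene ID. Both hold the control columns, which differed in 0 values. Of detected values 70.8% to 73.4% were whole (no fraction at all, tolerance 0), and the others were rounded.

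After filterByExpr and TMM scaling, the 9 libraries were fitted together by group, and the contrast As2S2 minus PMA was tested with edgeR 4.0.16 (quasi-likelihood test, R 4.3.3, threshold 0.05 after Benjamini-Hochberg adjustment). The common biological coefficient of variation was 0.0909. Errors are approximate SEs, worked back from each log2 difference and the F statistic of its test. The 95% intervals were built from these SEs with the t distribution, so they are approximate too. TPM values served with the counts to give relative transcript lengths, for 99.7% of genes tested. Gene types came from GENCODE 29 and symbols, for 62666 IDs, from a gene name table.

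Counts were simulated over 13891 genes from the control means, with the same spread for every gene. On these the fit called 98% of 50 genes raised 2-fold and 92% of 50 lowered to 0.5. It called 78% of 50 raised 1.5-fold, 70% of 50 lowered to 0.667 and 0.095% of unchanged genes. The changed genes were few and above 1 CPM in control, and no library was made to stand apart. In the data 61.4% of genes were called and the spread varied by gene, so these shares need not hold there.

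The comparison, the gene lists and the naming rule were chosen with earlier results of these data known. The rule took the 15 highest and 15 lowest differences, the 5 largest per class of which agent moved and direction, up to 5 members per list by adjusted p, and a fixed set, 240 genes in all. Another 16 were chosen after their values were seen. The list members TXN, AKR1C1, PRDX1, TBXAS1 and NR4A3 were named outside these sets. Their calls were not followed one by one over the alternatives. Lists are described by counts and medians with no test. Alternatives were DESeq2 1.42.0 and limma-voom (limma 3.58.1) in place of edgeR, scaling by RLE or upper quartiles, omitting the filter or raising it (a mean of 1 CPM, and 10 counts in all libraries of some group), a fit of the 6 libraries alone, the replicate number as a block, omission of the mitochondrial genome, removal of each library's trend with length, libraries left out, a threshold of 0.01 and a log2 difference of at least 1. Of the tested IDs, 64 share a symbol. The values of some list members are not reported here.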

Additional observations from a re-analysis of the deposited data

How the results depend on the processing

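Both counts stayed within 1.5 times of 4503 and 4463 under every alternative but 1. With a log2 difference of at least 1 they were 1392 and 1624. At a threshold of 0.01 they were 3683 and 3654, and with each library left out in turn 4123 to 4846 and 4030 to 4722. Upper-quartile scaling gave 4159 and 4853, with the median of all genes at -0.06. The replicate block gave 4543 and 4501, with 98.7% of the calls shared. The labels do not say whether replicate numbers pair the samples. Deviations of same-numbered As2S2 and PMA libraries correlated at 0.00228, -0.0322 and -0.0691. No shared deviation was seen, but with 3 libraries a group this cannot tell whether samples were prepared together. Of the 256 named genes 245 kept their side of the threshold, and their direction where called, in each of the 20 alternatives that held them. Direction was not followed for genes called in neither fit. The stricter filter held 253 of the named genes and the fit without the mitochondrial genome 251. With the length trend removed FTL became 0.33 and THBS1 -0.36, both reversed and called, and the calls of RUNX1 and MT-ND3 were lost. The call of CD79B (0.68) was lost without As2S2 replicate 2 (0.62) or 3 (0.63) or PMA replicate 1 (0.55). Leaving out As2S2 replicate 1 and control replicate 2 together gave 4943 and 4951 calls. In none of the other alternatives was a named gene called in the opposite direction. Depth limits genes with few counts, such as AXL, RAMP1 and PDGFB, to bounds or wide intervals.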

Other observations

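Further genes that the naming rule took show the classes of which agent moved. With As2S2 alone against control, the membrane-bending protein BIN1 (13.1, 14.3 and 14.1 CPM with As2S2 and 4.63, 4.16 and 4.04 with PMA, difference 1.69 ± 0.13) and the microtubule-associated MAP7 (2.40 ± 0.19) rose. KIT, the stem cell factor receptor, fell with As2S2 alone, at 5.48, 4.88 and 4.29 against 13.4, 13.5 and 14.9 CPM (-1.51 ± 0.13), with control at 16.5. The retinal dehydrogenase ALDH1A1 (-1.82 ± 0.11), the exchange factor VAV3 (-1.68 ± 0.12) and the progenitor factor HOXA10 (-0.94 ± 0.12) were of the same kind, with PMA not called against control. Both agents raised the tetraspanin TSPAN13, at 9.50, 8.81 and 8.63 against 233, 255 and 233 CPM (-4.74 ± 0.09), and the neuronal early gene ARC (-3.78 ± 0.14). Both lowered NIBAN1, at 32.3, 34.6 and 29.7 against 3.70, 3.70 and 2.15 CPM (3.35 ± 0.16), from 50.02. Some genes differed between the agents without being called against control with either, such as the paracaspase MALT1 (0.82 ± 0.18) and the G protein subunit GNAZ (-0.78 ± 0.17).

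Survival and compartment genes also parted. BCL2, which blocks apoptosis, stood at 60.3, 53.5 and 55.3 CPM with As2S2 and at 7.53, 10.4 and 8.07 with PMA (2.70 ± 0.12), with control at 42.3. Of 28 apoptosis and p53 genes 9 were higher with As2S2 and 14 with PMA, among the latter the killers PMAIP1 (-0.87 ± 0.08) and BMF (-1.48 ± 0.13). In the endoplasmic reticulum list, 8 and 10 of 20, the stress sensor's target XBP1 was higher with As2S2 (267, 268 and 279 against 108, 116 and 117 CPM) and the folding factor MANF with PMA (46.3, 39.6 and 46.1 against 90.1, 97.5 and 93.4 CPM). With the length trend removed the counts of that list were 4 and 9. Lysosome and autophagy genes rose with As2S2 in 18 and with PMA in 22 of 28, and 6 and 12 were higher with one agent than the other, in that order. LAMP1 was higher with As2S2 (1.03 ± 0.07). CTSA, a lysosomal protease chosen after its values were seen, rose with both and overlapped (interval -0.18 to 0.16). In glycolysis the glucose transporter SLC2A3 was higher with PMA (-1.24 ± 0.06) and the phosphofructokinase PFKP with As2S2 (0.94 ± 0.07).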
